A study of Homo sapiens with 52 samples.

Results

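The genes described here are 51 genes of the cell division cycle taken by symbol from a list, out of the 43290 gene symbols measured. They were read as 30 genes of mitosis and its control and 21 genes of DNA replication and its control. RNA was poly-A selected and sequenced from 2 human endothelial cell lines, and levels are in TPM, a transcript's share of its library scaled to a fixed total and corrected for transcript length. The TeloHAEC line derives from human aortic endothelium and was made to divide without limit by telomerase. The Eahy926 line came from fusing endothelial with lung carcinoma cells. Unmodified (parental) cells of each line were left untreated in normal growth medium or exposed for 24 h to interleukin 1β (IL-1β, 10 ng/ml) or tumor necrosis factor α (TNF-α, 10 ng/ml), both inflammatory cytokines, with 3 libraries in each group. A further group of 3 libraries per line tested the growth factor VEGF for 24 h. VEGF was added to the medium of Eahy926, whereas TeloHAEC, whose normal medium holds VEGF, were moved to medium without it. The titles of these TeloHAEC libraries say only VEGF. That it was lacking rests on their treatment label, and so does the direction of the VEGF results in TeloHAEC. Each line also had 2 untreated libraries with replicate numbers starting with 0 (the 0-series), and the 3 untreated libraries used as controls carry numbers starting with 1 (the 1-series). A second set of 24 libraries came from TeloHAEC carrying doxycycline-inducible KRAB-dCas9-BFP, a dead Cas9 fused to a repressor that silences the promoter a guide RNA points to (CRISPRi). These cells had been sorted for BFP, and all 24 libraries, controls included, carried a guide and received doxycycline at 2 µg/ml for 5 days. There were 2 guides against each of 10 genes (CCM2, PDCD10, ITGB1BP1, MESDC1, MAP3K3, MAP2K5, KLF2, MEF2A, NFAT5 and CDH5) and 4 non-targeting guides. The labels do not state whether replicate libraries are separate cultures. In the parental set p-values measure the spread between these libraries, which may be technical. In the CRISPRi set each library had its own guide, and the 2 guides of a target stood as its replicates. There p-values measure the spread between guides, which left unequal shares of their targets.

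A dividing cell first copies its DNA and then separates the copies. Cyclin E with its kinase and E2F transcription factors start the replication program, which loads the MCM helicase onto DNA (with CDC6 and CDT1), activates it (CDC45, GINS, MCM10) and supplies nucleotides and the polymerase clamp (RRM1, RRM2, TYMS, PCNA). Mitosis genes are transcribed later, through MYBL2, FOXM1 and the MuvB complex, and encode cyclins A and B, CDK1, the Aurora and Polo kinases, kinesins, kinetochore proteins and the CDC20 and UBE2C arms of the ubiquitin ligase that ends mitosis. In endothelium the program is known to be low in resting vessels and to be switched on by growth factors such as VEGF.

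The promoters of the subgroups differ in the motifs they hold. Windows from 250 bases before to 50 bases after the annotated start (RefSeq, GRCh38.p14, first listed start of each symbol) were found for 42 of the 51 genes, and 3 motifs were searched on both strands. The CHR element (TTTGAA or TTCGAA), which MuvB complexes are known to bind, was present in 17 of 25 mitosis promoters (68%) and 2 of 17 replication promoters (11.8%), against 16.6% of 27305 promoters of the same length. E2F motifs (TTTCGCGC, TTTGGCGC, TTTCCCGC or TTTGCCGC) were present in 11 of 17 replication promoters (64.7%) and 3 of 25 mitosis promoters (12%), against 3.3% of all. A CCAAT box was present in 76% of mitosis and 70.6% of replication promoters, against 35.7% of all. CHR and CCAAT together were present in 15 of 25 mitosis promoters (60%) and 6.6% of all. The promoters below belong to the 2 mitosis and 2 replication genes with the largest mean absolute log2 change over the 6 treatment comparisons, among those with a promoter that may be printed. They lie at chr5:138178862-138179161 (plus strand) for KIF20A, chr10:128126374-128126673 (minus strand) for MKI67, chr10:13161308-13161607 (plus strand) for MCM10 and chr6:52284693-52284992 (minus strand) for MCM3. Each is printed 5′ to 3′ on the gene's strand, with motif matches in capitals.
KIF20A: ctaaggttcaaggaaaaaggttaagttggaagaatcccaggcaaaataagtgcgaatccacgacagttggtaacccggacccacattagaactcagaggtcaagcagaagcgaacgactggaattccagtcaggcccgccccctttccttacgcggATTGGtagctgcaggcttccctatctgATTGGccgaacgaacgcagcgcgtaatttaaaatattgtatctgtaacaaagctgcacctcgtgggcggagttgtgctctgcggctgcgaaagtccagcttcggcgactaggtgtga
MKI67: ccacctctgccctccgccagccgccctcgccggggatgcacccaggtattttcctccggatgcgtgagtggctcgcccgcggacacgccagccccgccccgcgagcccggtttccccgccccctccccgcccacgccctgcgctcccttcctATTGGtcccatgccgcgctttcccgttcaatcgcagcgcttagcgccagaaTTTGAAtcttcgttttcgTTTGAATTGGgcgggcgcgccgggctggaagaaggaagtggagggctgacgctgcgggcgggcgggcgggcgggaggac
MCM10: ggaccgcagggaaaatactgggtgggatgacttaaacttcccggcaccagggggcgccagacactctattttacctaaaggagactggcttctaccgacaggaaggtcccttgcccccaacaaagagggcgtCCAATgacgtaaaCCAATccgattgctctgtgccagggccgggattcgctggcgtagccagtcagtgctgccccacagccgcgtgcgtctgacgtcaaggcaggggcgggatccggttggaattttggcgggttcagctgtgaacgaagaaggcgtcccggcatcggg
MCM3: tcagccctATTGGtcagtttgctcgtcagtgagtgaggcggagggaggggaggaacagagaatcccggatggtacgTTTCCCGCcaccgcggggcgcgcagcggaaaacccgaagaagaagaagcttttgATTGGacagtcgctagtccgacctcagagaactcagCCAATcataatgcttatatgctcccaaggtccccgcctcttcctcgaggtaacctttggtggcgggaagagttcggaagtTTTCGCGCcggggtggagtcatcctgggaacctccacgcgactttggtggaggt
MKI67 held 2 CHR and 2 CCAAT matches, and its second CHR overlaps a CCAAT box read on the other strand (ATTGG). MCM3 held 3 CCAAT and 2 E2F matches. KIF20A and MCM10 held 2 CCAAT matches each and neither of the other motifs in this window.

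All 51 genes reached at least 1 TPM in at least 3 of the 24 parental libraries of the fit and were tested; of the CRISPRi set 50 were tested, since E2F2 lay at 0 to 0.141 TPM there. Reads per library are unknown, since TPM keep no depth. Endothelial markers were present as labelled: 10 of 10 reached 1 TPM in TeloHAEC (summed 3083 to 3252 TPM untreated), and 9 of 10 in Eahy926 (926 to 1054 TPM), where CLDN5 was listed at 0. Epithelial markers summed to 2047 to 2134 TPM in the untreated TeloHAEC 1-series and 2215 to 2226 TPM in its 0-series. In Eahy926 these sums were 4096 to 4157 TPM and 2137 to 2249 TPM, above its endothelial sums. Of the 8 epithelial genes 4 reached 1 TPM in every untreated 1-series library of each line. Fibroblast and smooth muscle markers summed to at most 8.22 TPM in the untreated 1-series. In the 0-series they summed to 23.6 to 24.7 TPM in TeloHAEC and 9.75 to 9.96 TPM in Eahy926. Leukocyte markers summed to 79.8 to 87.8 TPM in the TeloHAEC 1-series and 51.8 to 56.2 TPM in its 0-series. In Eahy926 these sums were 156 to 186 TPM and 173 to 187 TPM. The 0-series stood apart from the 1-series in both lines: in TeloHAEC 30.9% of 13542 genes were higher and 17.6% lower in the 0-series, including 5 and 25 of the 51 genes described here. In Eahy926 the shares were 32.5% and 14%, with 4 genes of the 51 higher and 24 lower. For that reason the main TeloHAEC results are also given against the 0-series, in fits chosen after seeing the data. Values with no such figure, and the comparisons between the lines, rest on the 1-series alone. The labels do not say how the series differed, and the difference cannot be told apart from a batch. In the CRISPRi set, targets fell to between 2.58% and 40.9% of the non-targeting mean in 18 of 20 guide libraries, and MAP2K5 guide 1 (105%) and NFAT5 guide 2 (97.1%) left their targets at the control level.

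Untreated Eahy926 carried more of nearly every gene. The summed level of the mitosis genes was 5518, 5095 and 5552 TPM in Eahy926 and 2801, 2885 and 2775 TPM in TeloHAEC. The replication genes summed to 4359, 4327 and 4388 TPM in Eahy926 and 1812, 1831 and 1775 TPM in TeloHAEC. No library of either line overlapped the other in these sums. In bulk RNA, fewer cells in the cycle and less RNA of these genes per cell cannot be told apart. With limma on log2(TPM + 1), adjusted over all genes and called at an adjusted p under 0.05, 50 of 51 genes were lower in TeloHAEC and 1 was higher, where 39.9% of all genes were lower and 36.3% higher. The median log2 difference, TeloHAEC minus Eahy926, was -1.16 for replication and -0.98 for mitosis genes, beside -0.05 for all genes.

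**Figure D1:**
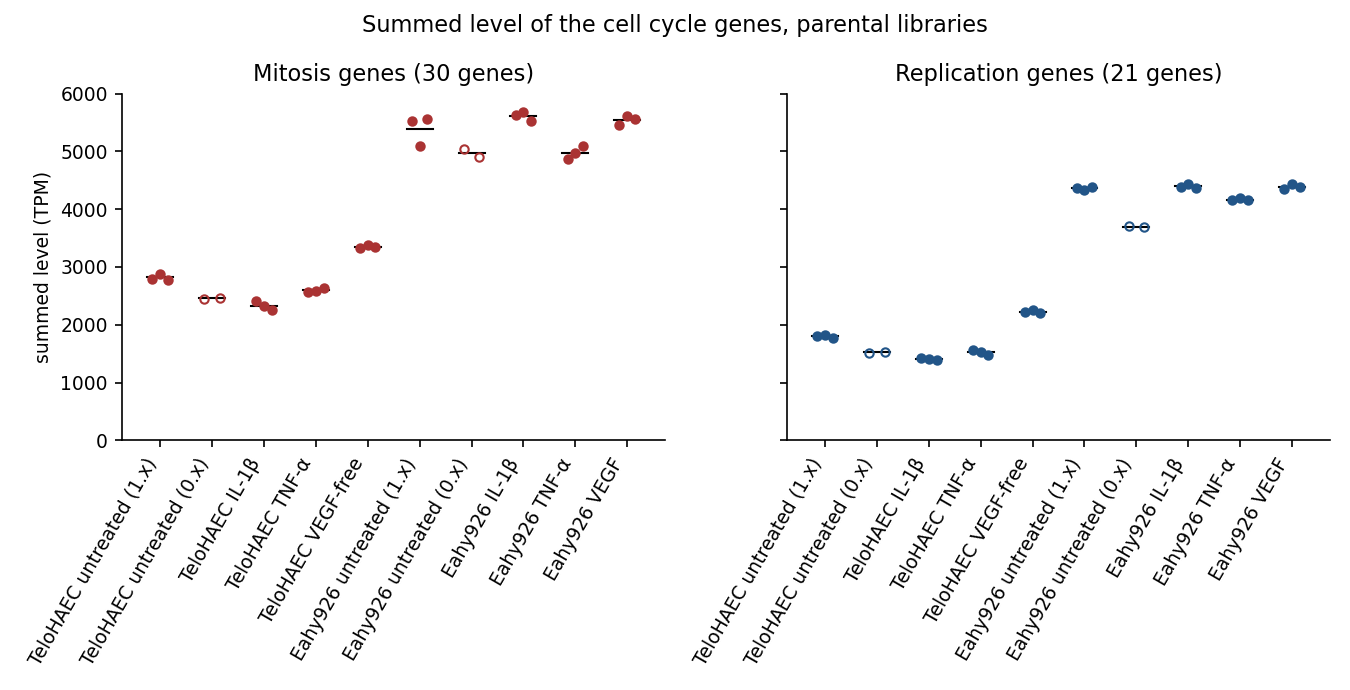
Summed TPM of the 30 mitosis genes (left) and 21 replication genes (right), 1 point per parental library with a line at each group's mean; open points are the untreated 0-series. Eahy926 lies above TeloHAEC throughout, and in TeloHAEC the VEGF-free libraries are highest and the IL-1β libraries lowest.

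CDT1, which loads the MCM helicase, differed most between the lines. It was at 20.7, 22.0 and 22.5 TPM in untreated TeloHAEC and 83.0, 81.8 and 78.5 TPM in Eahy926 (log2 difference -1.85 ± 0.08 SE, adjusted p = 6.0e-15). MCM2, a helicase subunit, was at 63.1, 59.7 and 60.3 TPM against 198, 164 and 198 TPM (-1.59 ± 0.07). PCNA, the polymerase clamp, was at 429, 457 and 429 TPM against 1130, 1258 and 1129 TPM (-1.42 ± 0.04). None of these groups overlapped. CCNE2 differed least among replication genes, at 28.5, 26.5 and 24.3 TPM against 30.8, 32.3 and 30.9 TPM (-0.24 ± 0.09, adjusted p = 0.019). Among mitosis genes CDC25C, the phosphatase that activates CDK1, differed most (-1.62 ± 0.09), followed by HMMR (-1.40), CENPE and AURKB (both -1.35). MKI67, the common marker of cycling cells, was lower by less (-0.49 ± 0.16, adjusted p = 0.0076), at 50.5, 50.1 and 46.7 TPM against 82.2, 44.6 and 90.3 TPM, and the second untreated Eahy926 library overlapped the TeloHAEC values. MYBL2, the B-Myb factor that switches on mitosis genes, was the exception. It was at 174, 171 and 173 TPM in TeloHAEC and 147, 141 and 140 TPM in Eahy926 (0.27 ± 0.04, adjusted p = 1.1e-06), but at 104 and 96.1 TPM in the TeloHAEC 0-series and 109 and 111 TPM in the Eahy926 0-series, where the order turned.

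IL-1β lowered genes of both subgroups in TeloHAEC when read against the 1-series. Of the 51 genes 41 fell and none rose, 17 of 21 replication and 24 of 30 mitosis genes, where 21.2% of all genes fell and 9.92% rose (15.4% and 14.1% after scaling by median of ratios, with 38 genes of the 51 lower). The median log2 change was -0.33 for replication and -0.26 for mitosis genes, beside -0.07 for all genes. The 3 IL-1β libraries summed to 2414, 2324 and 2259 TPM for mitosis and 1435, 1404 and 1389 TPM for replication genes, all below the 3 controls. Against the 0-series, which held 2445 and 2472 TPM for mitosis and 1520 and 1536 TPM for replication genes, the IL-1β libraries were also lower. By gene, 25 of the 51 fell against both control series (11 replication and 14 mitosis genes), where 15.6% of all genes did, and 6 that fell against the 1-series rose against the 0-series. Against the 0-series alone 12 of 21 replication and 16 of 30 mitosis genes fell, and 3 and 7 rose, where 42.2% of all genes fell and 18.9% rose. The median log2 change was then -0.13 for replication and -0.19 for mitosis genes, beside -0.16 for all genes.

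E2F8, an E2F factor that represses replication genes late in the cycle, fell most. It was at 13.1, 12.5 and 12.3 TPM in the controls and 7.13, 5.33 and 4.05 TPM with IL-1β (log2 change -1.10 ± 0.13 SE, adjusted p = 6.3e-07). The 0-series, at 15.7 and 14.0 TPM, lay higher still (-1.31 against it), and no IL-1β library overlapped either series. Other replication genes that fell against both series were MCM6 (-0.52 and -0.39), MCM10 (-0.45 and -0.30), CDC6, which loads the helicase with CDT1 (-0.40 and -0.44), MCM3 (-0.40 and -0.41) and CCNE2, cyclin E2 (-0.39 and -0.53). MCM3 was at 103, 95.2 and 95.2 TPM in the controls, 99.1 and 98.5 TPM in the 0-series, and 71.1, 76.7 and 74.0 TPM with IL-1β. RRM2, a subunit of ribonucleotide reductase, moved from 140, 151 and 141 TPM to 126, 123 and 118 TPM (-0.23 and -0.34). TYMS, thymidylate synthase, fell from 293, 294 and 285 TPM to 205, 198 and 201 TPM (-0.53 ± 0.03, adjusted p = 4.6e-12), but its 0-series was at 211 and 221 TPM, and the change against it was -0.10. PCNA (-0.40) and E2F1 (-0.23) fell against the 1-series, with changes of 0.05 and 0.21 against the 0-series that were not called. MCM2 fell from 63.1, 59.7 and 60.3 TPM to 46.8, 46.9 and 47.5 TPM (-0.37, adjusted p = 0.00013), with a change of -0.08 against the 0-series that was not called. CCNE1, cyclin E1, was not called (-0.11 ± 0.10, adjusted p = 0.44) and was 0.59 higher than in the 0-series. Epithelial markers, carried by KRT19 and KRT18, also moved: they summed to 2047 to 2134 TPM in the controls, 2215 to 2226 TPM in the 0-series and 1061 to 1100 TPM with IL-1β, and their part in the result was not tested.

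Among mitosis genes KIF20A, a kinesin of the cleavage furrow, fell from 84.4, 88.1 and 89.3 TPM to 62.5, 60.5 and 59.7 TPM with IL-1β (-0.51 ± 0.06 SE, adjusted p = 1.2e-06; -0.31 against the 0-series). TOP2A, the topoisomerase that untangles sister chromatids, fell from 99.9, 103 and 98.2 TPM to 80.2, 76.9 and 72.4 TPM (-0.39; -0.65 against the 0-series of 121 and 120 TPM). CENPF and CENPA, both of the centromere, fell by -0.38 and -0.42, BIRC5 (survivin) by -0.42, and CDK1 by -0.27; each also fell against the 0-series. FOXM1, a transcription factor of mitosis genes, fell from 101 TPM in each control to 76.9, 72.4 and 72.4 TPM (-0.45; -0.20 against the 0-series). CCNB1, cyclin B1, fell from 184, 198 and 192 TPM to 174, 163 and 157 TPM (-0.22, adjusted p = 0.00025), and the change against the 0-series of 171 and 175 TPM was not called (-0.08). A few genes turned with the control series. MYBL2 fell by -0.23 against the 1-series and rose by 0.55 against the 0-series, PLK1 by -0.23 and 0.30, AURKA by -0.24 and 0.22, and CDC20 by -0.30 and 0.14. MKI67 was at 43.5, 45.8 and 34.4 TPM with IL-1β and was not called against the 1-series (-0.26 ± 0.16, adjusted p = 0.24). It fell against the 0-series (-0.40, adjusted p = 0.048).

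TNF-α lowered fewer genes against the 1-series, mostly of replication. Of the 51 genes 24 fell and none rose, 16 of 21 replication and 8 of 30 mitosis genes, where 9.95% of all genes fell and 8.27% rose. The median log2 change was -0.24 for replication and -0.08 for mitosis genes, beside -0.02 for all genes. Replication genes summed to 1557, 1533 and 1476 TPM, below the controls but around the 0-series values of 1520 and 1536 TPM. Only 7 of the 24 also fell against the 0-series, where 6.68% of all genes fell against both, and 8 of the 24 rose against it. Against the 0-series alone 7 replication and 6 mitosis genes fell, and 5 and 8 rose, where 35.1% of all genes fell and 19.9% rose. The medians were then 0.02 for replication and 0.03 for mitosis genes, beside -0.10 for all genes. With all 5 untreated libraries as controls, chosen after seeing the data, 10 genes fell and 1 rose. The share of all genes called in that fit was not recorded. The 7 genes that fell against both series were E2F8, CCNE2, MCM3, MCM10, RRM1, RRM2 and PRC1, a spindle midzone protein.

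E2F8 was at 7.24, 6.94 and 6.34 TPM with TNF-α (-0.80 ± 0.13 SE, adjusted p = 6.5e-05; -1.02 against the 0-series), below all 5 untreated libraries. CCNE2 was at 20.9, 18.5 and 17.6 TPM, below the controls at 28.5, 26.5 and 24.3 TPM and the 0-series at 27.2 and 30.9 TPM (-0.46 ± 0.09, adjusted p = 0.00059; -0.59 against the 0-series). RRM2 was at 127, 120 and 124 TPM (-0.22; -0.32 against the 0-series). E2F1 fell by -0.35 (40.7, 41.0 and 38.9 TPM to 33.9, 33.2 and 27.5 TPM), but the 0-series held 33.05 and 26.3 TPM and overlapped these values. CCNE1 fell by -0.29 against the 1-series (adjusted p = 0.046) and was 0.41 higher than in the 0-series (adjusted p = 0.002). PCNA, MCM2 and MCM5 fell by -0.27, -0.24 and -0.20, with changes of 0.18, 0.04 and 0.23 against the 0-series. In the mitosis subgroup FOXM1 (-0.33), KIF20A (-0.32), BIRC5 (-0.28), CDC20 (-0.26), MYBL2 (-0.23) and PRC1 (-0.17) fell most. Of these only PRC1 also fell against the 0-series (-0.17). CDC20 (0.17) and MYBL2 (0.55) rose against it, and FOXM1 (-0.09), KIF20A (-0.13) and BIRC5 (-0.03) were not called. Not called against the 1-series were MKI67 (-0.01), TOP2A (-0.06), CDK1 (-0.03) and CCNB1 (-0.10). Epithelial markers summed to 1483 to 1572 TPM with TNF-α, below both untreated series, and of 6 tested 3 fell and 1 rose; their part in the result was not tested.

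The cytokines were also compared directly with each other, since both had been read against the same 3 controls. The difference was that of the cytokine groups alone, but the spread per gene was shared over all 24 parental libraries. With IL-1β 16 genes were lower than with TNF-α and none higher, 12 of mitosis and 4 of replication, where 9.22% of all genes were lower and 3.52% higher (6.85% and 5.32% after median-of-ratios scaling, with 8 genes lower). TOP2A was at 80.2, 76.9 and 72.4 TPM with IL-1β and 96.3, 91.5 and 101 TPM with TNF-α (-0.33 ± 0.06 SE, adjusted p = 0.00078). CENPF (-0.34), CENPA (-0.30), BUB1B, a spindle checkpoint kinase (-0.28), MAD2L1 and CDK1 (both -0.24) were lower as well. Of the replication genes MCM6 (-0.25), CDC6 (-0.24), TYMS (-0.24) and PCNA (-0.13) were lower. E2F8 did not pass the test (-0.30 ± 0.13, adjusted p = 0.15). The count was 8 when the second IL-1β library, the third IL-1β library or the first TNF-α library was left out. With only the groups compared in the fit, 7 genes were lower and none higher.

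TeloHAEC in medium without VEGF, by their treatment label, carried more of both subgroups. Of the 51 genes 35 rose and none fell, 16 replication and 19 mitosis genes, where 9.1% of all genes rose and 4.02% fell (6.65% and 6.48% after median-of-ratios scaling, with 33 of the 51 higher). The mitosis genes summed to 3333, 3383 and 3343 TPM and the replication genes to 2222, 2253 and 2208 TPM, above every untreated library of both series. The median log2 change was 0.37 for replication and 0.24 for mitosis genes, beside 0.03 for all genes. Of these genes 31 rose against both control series (15 replication and 16 mitosis genes), where 6% of all genes did, and none reversed a call. Against the 0-series alone 18 replication and 20 mitosis genes rose and 1 mitosis gene fell, where 22.4% of all genes rose and 29.1% fell. The medians were then 0.55 and 0.34, beside -0.05 for all genes.

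The helicase loader CDT1 rose most, from 20.7, 22.0 and 22.5 TPM to 35.4, 29.1 and 31.2 TPM without VEGF (0.53 ± 0.08 SE, adjusted p = 0.0002; 0.85 against the 0-series of 17.2 and 17.1 TPM). MCM5 rose from 124, 115 and 120 TPM to 170, 163 and 161 TPM (0.46; 0.88 against the 0-series). CDC45, which activates the helicase, rose from 37.0, 38.9 and 41.4 TPM to 57.6, 52.7 and 49.5 TPM (0.44; 0.82), and E2F1 from 40.7, 41.0 and 38.9 TPM to 56.3, 55.8 and 50.6 TPM (0.42; 0.86). In these genes no VEGF-free library overlapped an untreated one. MCM2 (0.41), MCM10 (0.40), MCM3 (0.40), RRM2 (0.38), MCM6 (0.29), PCNA (0.19) and TYMS (0.19) rose too. CHEK1, the replication checkpoint kinase, rose by 0.37, having passed the test with neither cytokine against the 1-series. Against the 0-series it fell with IL-1β (-0.22, adjusted p = 0.033). Without VEGF, CCNE1 (0.27 ± 0.10, adjusted p = 0.075), CCNE2 (0.23, adjusted p = 0.099) and E2F8 (0.37 ± 0.13, adjusted p = 0.062) were not called against the 1-series.

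FOXM1 led the mitosis genes, from 101 TPM in each control to 148, 137 and 139 TPM (0.48 ± 0.06 SE, adjusted p = 1.5e-05; 0.72 against the 0-series). CCNB2 rose by 0.33, MYBL2 by 0.32, BIRC5 by 0.30, KIF23 and PRC1 by 0.28 each and CCNB1 by 0.27. MYBL2 went from 174, 171 and 173 TPM to 220, 211 and 215 TPM, and was higher by 1.09 than in the 0-series. PLK1, the Polo kinase, rose by 0.22 (145, 150 and 138 TPM to 174, 166 and 165 TPM). TOP2A rose by 0.20 (adjusted p = 0.036), with a change of -0.06 against the 0-series. CDK1 (0.16, adjusted p = 0.12) and MKI67 (0.26 ± 0.16, adjusted p = 0.31) were not called against the 1-series. Against the 0-series CDK1 was the mitosis gene that fell (-0.18, adjusted p = 0.040).

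**Figure D2:**
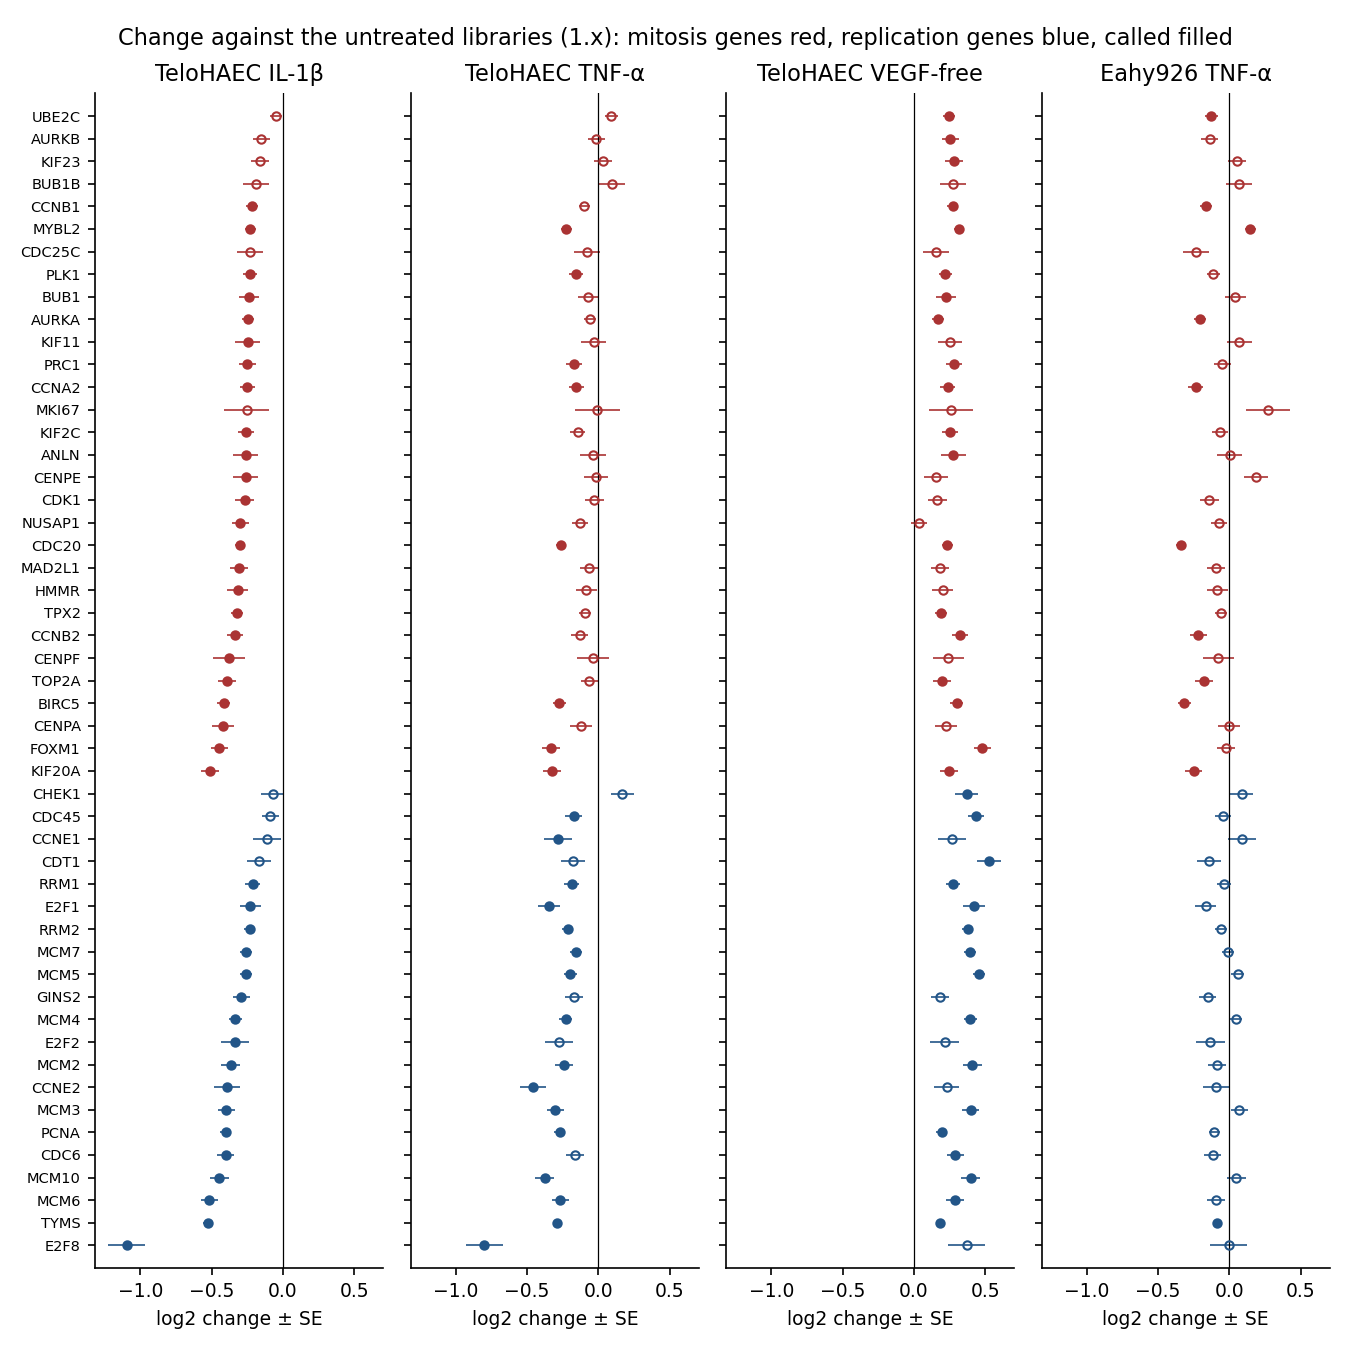
Log2 change with its SE of each of the 51 genes against the untreated 1-series in 4 comparisons, mitosis genes red and replication genes blue, called genes filled, ordered within a subgroup by the IL-1β change. E2F8 is farthest left with both cytokines in TeloHAEC, all 51 genes lie right of 0 without VEGF, and the Eahy926 TNF-α changes are few and mostly of mitosis genes.

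In Eahy926 neither IL-1β nor added VEGF called any of the 51 genes with limma. At an unadjusted p under 0.05 there were 7 of 51 with IL-1β, all higher (13.7%, against 11.4% of all genes), and 6 with VEGF (11.8%, against 8.71%). Over all genes 0.00738% were called in each of these comparisons. TNF-α lowered 10 genes and raised 1, 9 of the 10 and the 1 being mitosis genes, where 7.45% of all genes fell and 12.5% rose (10.5% and 10.3% after median-of-ratios scaling, with 17 of the 51 lower and none higher). CDC20, which activates the ligase that ends mitosis, went from 453, 443 and 438 TPM to 340, 361 and 352 TPM (-0.34 ± 0.04 SE, adjusted p = 2.5e-07). BIRC5 went from 174, 198 and 184 TPM to 148, 150 and 148 TPM (-0.31). KIF20A (-0.25), CCNA2 (-0.24), CCNB2 (-0.22), AURKA (-0.21), TOP2A (-0.18), CCNB1 (-0.16) and UBE2C (-0.13) fell by less. TYMS was the replication gene called (-0.08, adjusted p = 0.05). MYBL2 rose from 147, 141 and 140 TPM to 159, 156 and 159 TPM (0.15, adjusted p = 0.0079), whereas the 0-series held 109 and 111 TPM. The mitosis sums were 4862, 4975 and 5101 TPM with TNF-α, against 5518, 5095 and 5552 TPM in the 1-series and 4905 and 5047 TPM in the 0-series, and they overlapped both. With all 5 untreated libraries as controls, chosen after seeing the data, 5 genes were lower and 1 higher. The share of all genes called in that fit was not recorded. Epithelial markers summed to 4096 to 4157 TPM in the 1-series, 2137 to 2249 TPM in the 0-series and 2530 to 2672 TPM with TNF-α, and their part in the result was not tested. The count was 3 with only these 6 libraries in the fit, and it was 16 without the second untreated library.

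Whether the lines differed in their response was tested directly, as TeloHAEC minus Eahy926. For IL-1β 42 genes differed, all lower in TeloHAEC, 16 replication and 26 mitosis genes, where 16.5% of all genes were lower and 5.96% higher (10.5% and 9.81% after median-of-ratios scaling, with 30 genes lower). The median of all genes was -0.12 in this contrast, and the subgroup medians were -0.37 and -0.35. E2F8 differed most (-1.39 ± 0.18 SE, adjusted p = 5.5e-06): in Eahy926 it was at 26.6, 18.2 and 25.6 TPM untreated and 27.7, 30.1 and 28.2 TPM with IL-1β. KIF20A (-0.68), MKI67 (-0.62), CENPF (-0.57), MCM6 (-0.56), FOXM1 (-0.54), MCM10 (-0.53) and E2F2 (-0.52) followed. The second untreated Eahy926 library held less of several of these, such as MKI67 at 44.6 TPM beside 82.2 and 90.3 TPM, and without that library 40 genes differed. For TNF-α 9 genes differed, where 7.05% of all genes were lower and 3.26% higher. E2F8 (-0.80), MCM10 (-0.42), MYBL2 (-0.37), MCM3 (-0.37), FOXM1 (-0.31), MCM4 (-0.27), MCM5 (-0.26) and TYMS (-0.21) were lower in TeloHAEC. UBE2C was higher (0.22, adjusted p = 0.026), at 182, 178 and 165 TPM untreated and 188, 193 and 178 TPM with TNF-α in TeloHAEC, against 383, 409 and 372 TPM and 345, 346 and 376 TPM in Eahy926. With only the 4 groups compared in the fit, 4 genes differed for TNF-α.

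**Figure D3:**
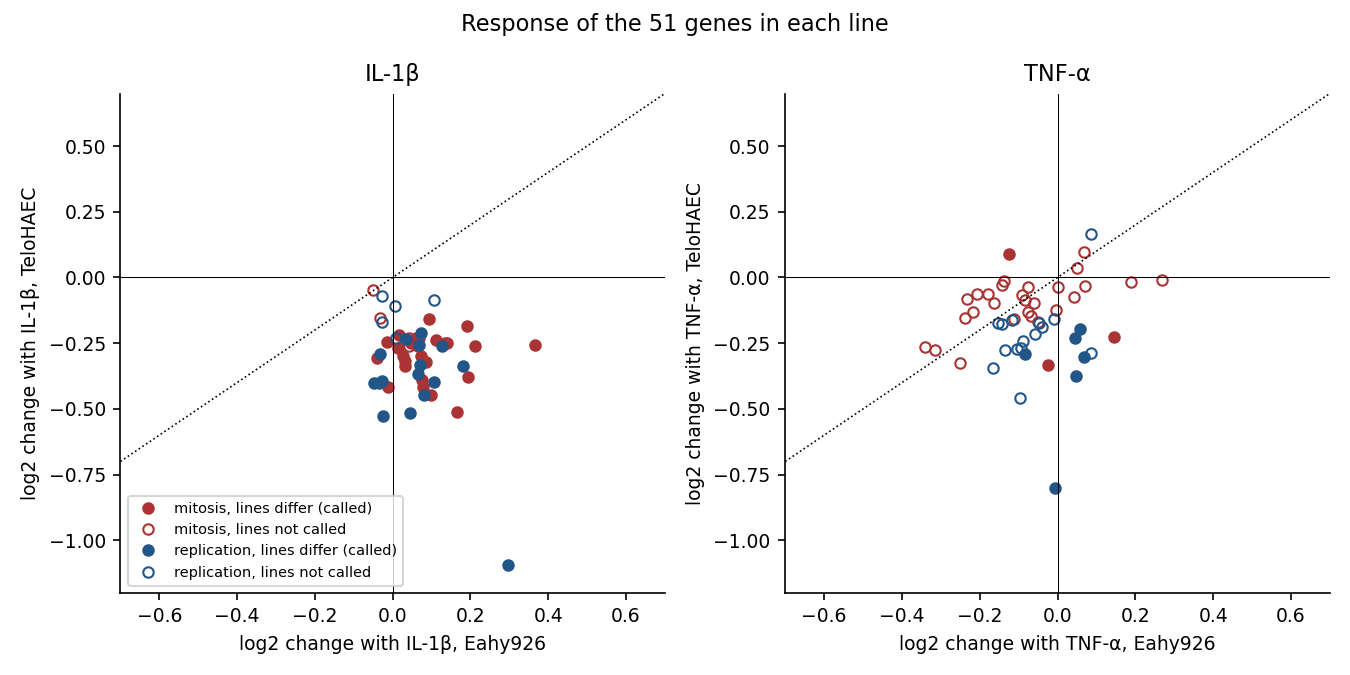
Log2 change of the 51 genes with IL-1β (left) and TNF-α (right) in Eahy926 (x axis) and TeloHAEC (y axis); filled points are genes whose response differed between the lines, and the dotted line marks equal change. With IL-1β nearly all points lie below that line and E2F8 lies lowest; with TNF-α 9 points are filled.

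The regulators upstream of these genes were read from lists that hold none of the 51. CDKN1A encodes p21, the CDK inhibitor that p53 is known to induce. It was at 431, 420 and 435 TPM in untreated TeloHAEC, 469, 466 and 480 TPM with IL-1β (0.14), 508, 496 and 505 TPM with TNF-α (0.23) and 357, 360 and 355 TPM without VEGF (-0.26), all called. The 0-series held 350 and 363 TPM of CDKN1A, in the range of the VEGF-free libraries. In Eahy926 CDKN1A rose with TNF-α (242, 236 and 237 TPM to 284, 300 and 289 TPM; 0.29). CDKN2B, which encodes the CDK4 and CDK6 inhibitor p15, rose with TNF-α in TeloHAEC from 12.2, 15.8 and 14.7 TPM to 25.2, 26.8 and 30.7 TPM (0.91) and was listed at 0 in every Eahy926 library. Other inhibitors fell with both cytokines: CDKN2C by -0.87 and -0.63, CDKN1B by -0.50 and -0.33 and CDKN2D by -0.38 and -0.44 with IL-1β and TNF-α. Over the 5 inhibitors tested, 1 rose and 3 fell with IL-1β, 2 rose and 3 fell with TNF-α, and 1 rose and 1 fell without VEGF. Of all genes 9.92% rose and 21.2% fell, 8.27% rose and 9.95% fell, and 9.1% rose and 4.02% fell, in the same order. Against the 0-series the counts were 1 and 3, 2 and 3, and 1 and 2. The shares of all genes there were 18.9% and 42.2%, 19.9% and 35.1%, and 22.4% and 29.1%.

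Of 9 cyclin D, CDK and pocket protein genes tested, CDK6 rose with IL-1β (14.6, 16.3 and 14.2 TPM to 27.9, 27.8 and 25.2 TPM; 0.80) and with TNF-α (0.76), against 24.2 and 21.8 TPM in the 0-series. CCND3, cyclin D3, fell with both (92.9, 92.5 and 94.8 TPM to 62.2, 62.4 and 67.6 TPM with IL-1β; -0.54 and -0.51), below the 0-series at 87.7 and 90.5 TPM. Without VEGF, CCND1, cyclin D1, fell from 451, 450 and 443 TPM to 331, 324 and 320 TPM (-0.46), below the 0-series at 491 and 482 TPM, while CDK2 (0.27) and CDK4 (0.22) rose. Of 30 other replication genes, 26 rose without VEGF and none fell, led by TIMELESS (0.51), RFC3 (0.48), ORC1 (0.47) and TIPIN (0.47). With IL-1β 16 of the 30 fell and 1 rose, and with TNF-α 7 fell and 1 rose. Of all genes 9.1% rose without VEGF and 4.02% fell. The shares that fell and rose were 21.2% and 9.92% with IL-1β and 9.95% and 8.27% with TNF-α. Against the 0-series 26 of the 30 rose without VEGF (86.7%, against 22.4% of all genes). With IL-1β 14 fell and 5 rose against it (46.7% and 16.7%, against 42.2% and 18.9% of all genes). With TNF-α 8 fell and 4 rose (26.7% and 13.3%, against 35.1% and 19.9%). Of 33 other mitosis genes 20 rose without VEGF, led by PKMYT1 (0.54) and NUF2 (0.38), 23 fell with IL-1β and 5 with TNF-α, in each case with none the other way. Against the 0-series 21 of the 33 rose and 1 fell without VEGF (63.6% and 3.03%, against 22.4% and 29.1% of all genes). With IL-1β 22 fell and 1 rose against it (66.7% and 3.03%, against 42.2% and 18.9%). With TNF-α 11 fell and 4 rose (33.3% and 12.1%, against 35.1% and 19.9%). Among these mitosis genes CDC25B, a phosphatase that activates cyclin-CDK complexes, fell most with both cytokines (-0.52 with IL-1β and -0.53 with TNF-α), from 137, 130 and 139 TPM to 95.7, 92.9 and 93.4 TPM with IL-1β, against 97.2 and 102 TPM in the 0-series. Of 12 other E2F and MuvB genes 2 fell with IL-1β, 1 rose with TNF-α (E2F7, 0.36) and none passed the test without VEGF.

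In the CRISPRi libraries the same genes were low, and the mitosis genes varied widely from library to library. The non-targeting libraries summed to 153, 109, 158 and 185 TPM for mitosis and 256, 280, 270 and 265 TPM for replication genes. MKI67 was at 1.41, 0.814, 1.81 and 2.53 TPM there, and CDKN1A at 861, 733, 878 and 950 TPM. The parental and CRISPRi values were quantified separately, over different symbol sets, so these levels stand beside those of parental TeloHAEC with no test. The median spread within groups (residual SD of log2 values) was 0.593 for mitosis and 0.223 for replication genes, beside 0.195 for all genes. In the parental libraries it was 0.0776, 0.0757 and 0.114. The guides whose libraries are contrasted next are printed 5′ to 3′, and their positions in the genome are not given in the sources used here.
CCM2 guide 1: ggcaagaaggtgagcgtgcg
CCM2 guide 2: gagccgctacatgctcgaccc
PDCD10 guide 1: gaccgagcagaagaggtcta
PDCD10 guide 2: gccgctttacgccactcgcgt

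The highest mitosis sums of the 24 libraries were those of CCM2 guide 2 (379 TPM) and PDCD10 guide 1 (351 TPM). CCM2 and PDCD10 are proteins of the cerebral cavernous malformation complex, known to restrain MEKK3 signalling to KLF2. The other guide of each lay within the non-targeting range, at 167 TPM for CCM2 guide 1 and 114 TPM for PDCD10 guide 2, whose target remained at 40.9% of the control, beside 12.9% with guide 1. CCM2 itself was at 15.6% with guide 1 and 4.45% with guide 2. All 30 mitosis genes were above the non-targeting mean in CCM2 guide 2 (median log2 difference 1.15) and in PDCD10 guide 1 (1.08). In CCM2 guide 1 23 of 30 were above it (0.121), and in PDCD10 guide 2 4 of 30 (-0.358). Counts near 30 were also found in libraries of other guides, with smaller medians. MAP2K5 guide 1, whose target was not reduced, had 29 of 30 (0.361) and MESDC1 guide 1 28 of 30 (0.44). The fourth non-targeting library had 25 of 30 (0.212). PLK1, for example, was at 7.35, 4.25, 8.43 and 10.7 TPM in the non-targeting libraries, 7.86 and 21.3 TPM with CCM2 guides 1 and 2, and 18.2 and 5.50 TPM with PDCD10 guides 1 and 2. The replication sums of the same guides were 278 and 286 TPM with CCM2 and 222 and 236 TPM with PDCD10. The ratio of mitosis to replication sums was 1.58 in PDCD10 guide 1 and 1.32 in CCM2 guide 2, and 0.277 to 0.745 in the other 22 libraries.

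**Figure D4:**
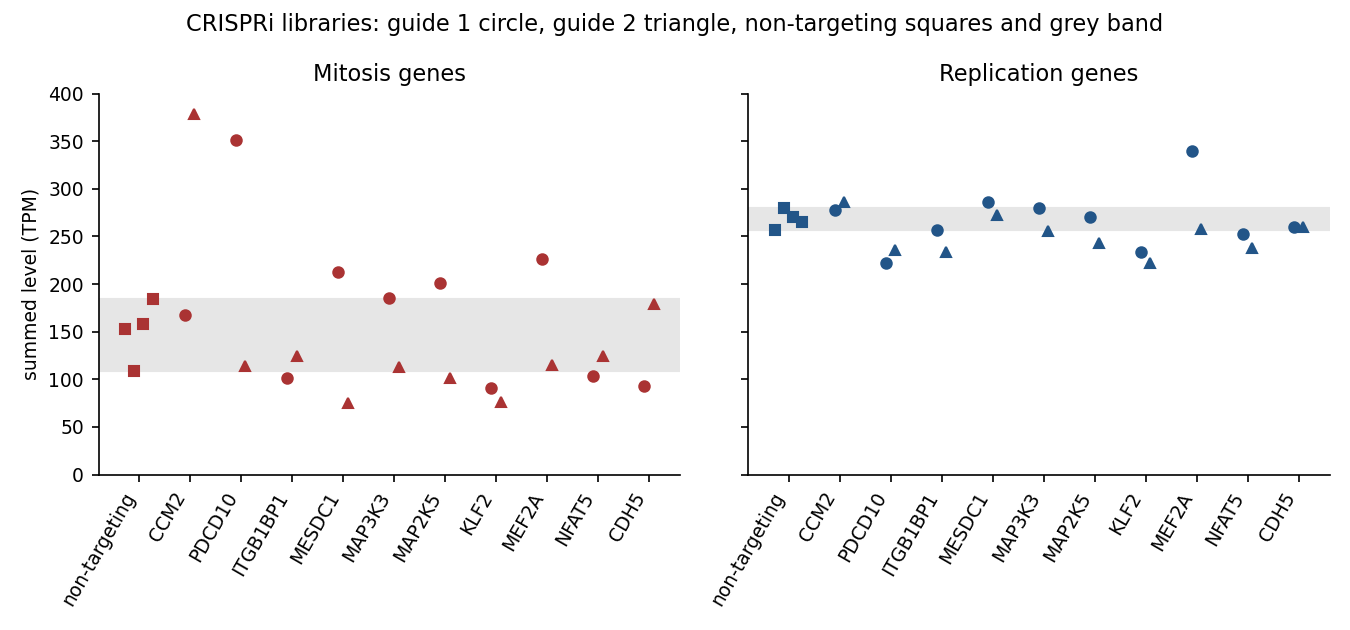
Summed TPM of the mitosis genes (left) and replication genes (right) in each of the 24 CRISPRi libraries; the grey band spans the 4 non-targeting libraries. For mitosis genes CCM2 guide 2 and PDCD10 guide 1 stand highest, at 379 and 351 TPM, and both KLF2 guides lie below the band. Libraries of other targets also leave the band. MEF2A, MESDC1 and MAP2K5 guide 1 lie above it (226, 213 and 201 TPM), and MAP3K3 guide 1 at its upper edge. MESDC1 guide 2 (75.5 TPM), CDH5 guide 1 (92.9 TPM), MAP2K5 guide 2, ITGB1BP1 guide 1 (both 101 TPM) and NFAT5 guide 1 (104 TPM) lie below it.

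Tested over both guides, no mitosis gene was called with CCM2 knockdown and 4 replication genes rose, where 5.66% of all genes rose and 8.37% fell (7.69% and 4.79% after median-of-ratios scaling, with 5 genes of the 50 higher). E2F1 was at 1.66, 2.62, 1.62 and 1.67 TPM in the non-targeting libraries and 4.93 and 5.40 TPM with the CCM2 guides (1.1 ± 0.23 SE, adjusted p = 0.0042). CDC45 was at 1.65, 2.57, 1.82 and 1.2 TPM and 5.24 and 5.51 TPM (1.2 ± 0.33, adjusted p = 0.022). E2F8 was at 1.06, 0.761, 1.01 and 0.705 TPM and 1.91 and 3.19 TPM (0.90 ± 0.23, adjusted p = 0.016), and CHEK1 at 8.12, 9.42, 8.61 and 7.94 TPM and 14.2 and 12.4 TPM (0.59 ± 0.18, adjusted p = 0.037). In these 4 genes both guides lay above all 4 controls. Of all members, 7 of 20 replication and 8 of 30 mitosis genes had both CCM2 guides above every control, where 13.3% of all genes did. MCM2 (-0.20), PCNA (-0.06), CCNE1 (-0.42) and CCNE2 (-0.09) were not called, nor were RRM2 (1.1 ± 0.44, adjusted p = 0.11), FOXM1 (0.99 ± 0.40), MYBL2 (1.15 ± 0.52) or MKI67 (0.57 ± 0.47). At an unadjusted p under 0.05 there were 13 of the 50 (26%, against 27.7% of all genes). Without guide 2 none of the 4 calls was left, and without the fourth non-targeting library 2 genes were called.

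PDCD10 knockdown called 1 gene, where 7.04% of all genes were called, 4.55% lower and 2.5% higher (2.55% and 4.26% after median-of-ratios scaling, with no gene of the 50 called). PCNA was at 84.2, 92.2, 87.7 and 85.5 TPM in the non-targeting libraries and 62.7 and 76.3 TPM with the guides (-0.33 ± 0.08 SE, adjusted p = 0.025). CDC45 was at 7.89 TPM with guide 1 and 1.66 TPM with guide 2. With guide 2 left out 4 genes rose and 2 fell, and with guide 1 left out none was called. ITGB1BP1 knockdown, of a further partner of the complex, called none, where 3.34% of all genes rose and 4.36% fell (4.59% and 2.7% after median-of-ratios scaling, with 1 gene higher). Its guides held E2F8 at 2.12 and 2.17 TPM (0.75 ± 0.23, adjusted p = 0.059) and CDC45 at 4.07 and 3.60 TPM (0.80 ± 0.33, adjusted p = 0.15), both above every control, while its mitosis sums were 101 and 125 TPM. At an unadjusted p under 0.05 there were 7 of 50 with PDCD10 (14%, against 24.4% of all genes) and 5 of 50 with ITGB1BP1 (10%, against 23.3%).

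The mean of the CCM2, PDCD10 and ITGB1BP1 knockdowns was set against the mean of MAP3K3 (which encodes MEKK3), MAP2K5 and KLF2, the cascade the complex is known to restrain. Here 5 genes were higher (10%) and 1 lower (2%), where 10.2% of all genes were higher and 21% lower. The share of the 50 that was higher was thus no larger than that of all genes. After median-of-ratios scaling 14.9% of all genes were higher and 12.8% lower, with 8 of the 50 higher and none lower. E2F8 (1.03 ± 0.16 SE, adjusted p = 8.9e-05), FOXM1 (0.98 ± 0.27, adjusted p = 0.0095), CDC45 (0.88), E2F1 (0.78) and CHEK1 (0.33) were higher and MCM7 was lower (-0.31). E2F8 was at 1.53 to 3.19 TPM in the 6 complex libraries and 0.213 to 0.792 TPM in the 6 cascade libraries, which did not overlap. The cascade values lie below 1 TPM, and the share of all genes without overlap was not computed here. The count was 15 without PDCD10 guide 2 and 10 without MAP2K5 guide 1, the guide that left its target unreduced.

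**Figure D5:**
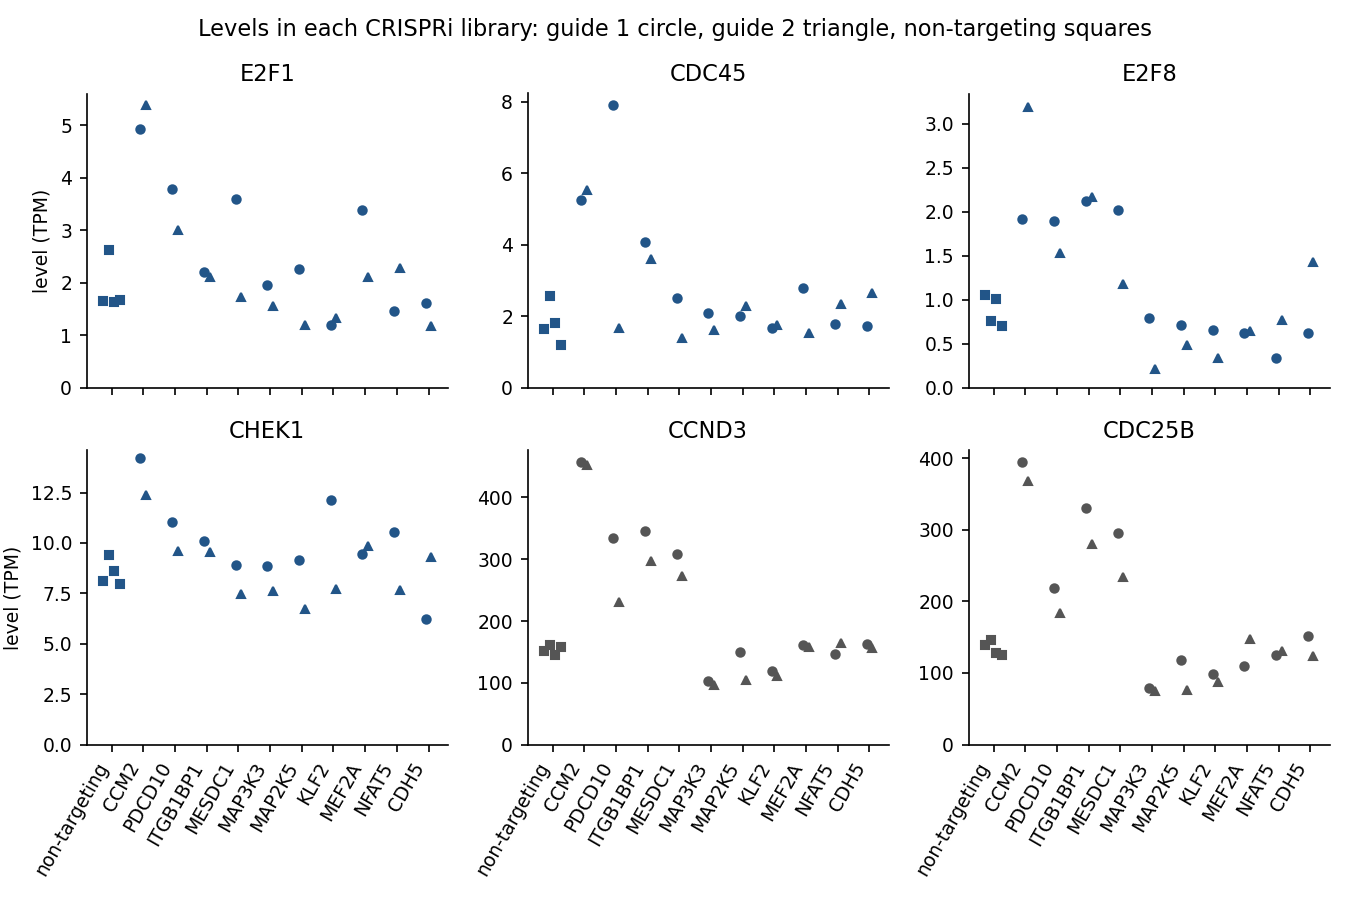
TPM in each CRISPRi library of the 4 replication genes that rose with CCM2 knockdown (blue) and of CCND3 and CDC25B (grey). CCM2 libraries lie above the non-targeting squares in all 6 panels, and CCND3 and CDC25B are also above them with PDCD10, ITGB1BP1 and MESDC1.

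KLF2 knockdown gave low mitosis sums with both guides, 91.0 and 76.0 TPM, under the lowest control of 109 TPM, but no gene was called, where 0.00707% of all genes rose and 0.00707% fell. All 30 mitosis genes had a negative change (median -0.62, beside -0.19 for replication genes). By library, 3 and 0 of the 30 were above the non-targeting mean with KLF2 guides 1 and 2. MESDC1 guide 2 had 0 of 30 above it and the second non-targeting library 3 of 30. Of the 30, 18 had both KLF2 guides below every control, as had 10.5% of all genes. CDC20 was at 9.05, 7.67, 11.2 and 13.7 TPM in the non-targeting libraries and 4.15 and 3.80 TPM with the guides (-1.17 ± 0.47 SE), and RRM2 at 8.0, 6.77, 7.70 and 8.91 TPM and 3.84 and 3.14 TPM (-0.98 ± 0.44). At an unadjusted p under 0.05 there were 5 of 50 (10%, against 4.25% of all genes). MESDC1, MAP3K3, MAP2K5, MEF2A, NFAT5 and CDH5 knockdowns called none of the 50 with limma. MAP2K5 guide 1 (105% of control) and NFAT5 guide 2 (97.1%) had left their targets unreduced. The MAP2K5 and NFAT5 tests thus average a guide that reduced its target with a guide that did not. Of all genes 0.382% rose and 0.17% fell with MESDC1 (0.552% in all), and 0.00707% rose and 0.0495% fell with MAP3K3 (0.0566% in all). With MAP2K5 0% were called, with MEF2A 0.00707% fell, with NFAT5 0.00707% rose, and with CDH5 0.0141% were called. At an unadjusted p under 0.05 there was 1 gene each with MESDC1, MEF2A, NFAT5 and CDH5 (2%, against 10.3%, 6.26%, 1.93% and 2.84% of all genes) and none with MAP3K3 and MAP2K5 (against 7.2% and 3.89%). Guides of 1 target often disagreed. MESDC1 gave 213 and 75.5 TPM, MAP2K5 201 and 101 TPM, MEF2A 226 and 115 TPM and CDH5 92.9 and 179 TPM for the mitosis genes.

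Several regulators outside the 51 were called in these knockdowns. CCND3 was at 151, 161, 145 and 157 TPM in the non-targeting libraries. It was at 458 and 453 TPM with CCM2 (1.57 ± 0.13 SE, adjusted p = 1.0e-06), 346 and 297 TPM with ITGB1BP1 (1.06), 334 and 232 TPM with PDCD10 (0.86) and 308 and 273 TPM with MESDC1 (0.92), and rose in all 4 knockdowns. CDC25B, at 138, 146, 128 and 125 TPM in the controls, rose in the same 4 knockdowns, to 395 and 368 TPM with CCM2 (1.5 ± 0.15, adjusted p = 9.5e-06) and to 219 and 184 TPM with PDCD10 (0.58). Neither group overlapped its controls. FEN1, the flap nuclease of lagging-strand synthesis, rose with CCM2 (0.68) and ITGB1BP1 (1.00), as did GINS3, a subunit of the replicative helicase (0.76 and 0.92). CDKN2D rose with CCM2 (1.13) and PDCD10 (1.21), and CDKN1B, which encodes p27, fell with CCM2 (41.8, 40.7, 39.3 and 44.6 TPM to 32.6 and 25.1 TPM; -0.53). Of 28 other replication genes tested with CCM2 knockdown 3 rose and 1 fell, and of 33 other mitosis genes 1 rose, where 5.66% of all genes rose and 8.37% fell. Of 12 other E2F and MuvB genes 2 fell, among them E2F7, a repressor related to E2F8 (-1.03). Markers of epithelial cells moved with these knockdowns. Their summed level was 1210 to 1395 TPM in the controls, 5403 to 6507 TPM with CCM2, 2632 to 6819 TPM with PDCD10, 2937 to 3267 TPM with ITGB1BP1 and 2493 to 2653 TPM with MESDC1. Of 5 tested, KRT18 and KRT19 rose with CCM2 and PDCD10, and KRT7 fell with CCM2 (-1.56, adjusted p = 0.0073) and was not called with PDCD10 (-1.11, adjusted p = 0.068), while EPCAM, CDH1 and KRT5 stayed at or below 0.736 TPM in all of them. The leukocyte list had 1 gene tested, CD68, which rose with CCM2 (1.01) and PDCD10 (1.33). The part of these markers in the results was not tested.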

How the data were processed

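The authors deposited 1 table of TPM by gene symbol for 52 libraries. Per the submitters' processing notes the tools were Bowtie2 and kallisto and the build hg19, with no versions given. Symbols differ between the 28 parental and 24 CRISPRi columns (27311 and 35587 symbols, 19608 in both), and TPM fill their fixed total in the first and 96.8% to 97.2% of it in the second, so no test crosses the sets. Depth is unknown.

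From these values log2(TPM + 1) was computed for symbols reaching 1 TPM in 3 or more of 24 parental or 2 or more of 24 CRISPRi libraries (13542 and 14143 genes). Each set was fitted once with limma 3.58.1 in R 4.3.3 (trend, empirical Bayes; 8 or 11 groups, so that groups share a spread per gene), with two-sided tests and Benjamini-Hochberg adjustment over all genes, called under 0.05, in 21 comparisons. The 0-series entered only the added fits over all 28 parental libraries, chosen after seeing the data. The fit was tested on simulated data. Sequences came from RefSeq and the labels; 9 genes had no promoter in the table. Genes were named by rule: those with the largest called changes in each direction and subgroup, a set of standard cycle genes called or not, up to 4 called genes of each other list, and each knockdown's target. The members and lists were chosen with earlier results of these data known. MESDC1 was read under the symbol TLNRD1. Alternatives were another pseudocount, filters, scalings, fits on the compared groups only, a replicate block and leaving out each library.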

Additional observations from a re-analysis of the deposited data

Results flagged for a closer look

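The response to IL-1β differed between TeloHAEC and Eahy926 for 42 of the 51 genes by the test of the difference itself, where 22.5% of all genes differed. In Eahy926 alone IL-1β called 0.00738% of all genes. The largest differences, TeloHAEC minus Eahy926 on the log2 scale, were those of E2F8 (-1.39), KIF20A (-0.68) and MKI67 (-0.62). The MKI67 difference holds 1 untreated Eahy926 library at 44.6 TPM beside 82.2 and 90.3 TPM. The response to TNF-α differed for 9 genes, where 10.3% of all genes differed, with E2F8 (-0.80), MCM10 (-0.42) and MYBL2 (-0.37) the largest. Among the 4 non-targeting CRISPRi libraries, E2F1 at 2.62 TPM in the second stood far from the other 3 (1.62 to 1.67 TPM). It was the only 1 of 49 genes examined in this way, and chance marks about 1 in 20.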

How the results depend on the processing

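No called gene changed direction under another pseudocount (0.1), another filter, either scaling, fits on the compared groups only, or without any 1 library. The choice of untreated libraries, an alternative chosen after seeing the data, mattered more. Against the 0-series alone IL-1β values turned for MCM5 (0.17), PCNA (0.0498), E2F1 (0.21), AURKA (0.22), PLK1 (0.30), CDC20 (0.14), KIF2C (0.025), TPX2 (0.14) and MYBL2 (0.55). TNF-α values turned for CCNE1 (0.41), MCM2 (0.0423), MCM5 (0.23), MCM7 (0.0767), CDC45 (0.21), PCNA (0.18), TYMS (0.14), E2F1 (0.089), PLK1 (0.37), CDC20 (0.17) and MYBL2 (0.55), and the VEGF-free value of TOP2A turned (-0.0612). With all 5 controls, IL-1β values turned for MYBL2 (0.0826), TNF-α values for PLK1 (0.0524) and MYBL2 (0.0852), and the Eahy926 TNF-α value of TYMS (0.14). Counts were then 11 for TNF-α in TeloHAEC and 6 in Eahy926, beside 24 and 11, with no share of all genes recorded. The cause was not tested.

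Median-of-ratios scaling gave 17 called genes for TNF-α in Eahy926 (from 11), 8 for IL-1β against TNF-α (from 16), 0 for PDCD10 (from 1) and 1 for ITGB1BP1 (from 0). Quantile scaling gave 1 for ITGB1BP1 and 10 for the complex against the cascade (from 6). With no filter there were 10 for IL-1β against TNF-α and 2 for CCM2 (from 4), and with at least 5 TPM 2 for CCM2. Fits on the compared groups only gave 3 for TNF-α in Eahy926, 7 for IL-1β against TNF-α, 4 for the TNF-α line difference (from 9), 7 for CCM2, 0 for PDCD10 and 4 for ITGB1BP1. Leaving out 1 library gave 7 to 16 for TNF-α in Eahy926, 8 to 17 for IL-1β against TNF-α, 0 to 4 for CCM2, 0 to 6 for PDCD10, 0 to 1 for ITGB1BP1, 0 to 1 for MEF2A and 4 to 15 for the complex against the cascade. Libraries with the same replicate number showed no shared deviation: of 18 pairs per line none had a correlation of deviations above 0.1 (means 0.0125 and -0.00078). The labels do not say whether a number marks a shared culture or day. With a replicate block 41 genes were called for IL-1β, 20 for TNF-α and 32 without VEGF in TeloHAEC, and no count moved by over 1.5 times. Depth per library is unknown, which leaves counting error out of the values below 2 TPM in the CRISPRi set.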
